A study of Mus musculus with 12 samples.

Results

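Striatal D1 projection neurons were picked out of single-nucleus RNA libraries of the mouse cortex at P21 by a rule on raw unique molecular identifiers (UMIs, one count per captured transcript). Barcodes with at most 12000 UMIs and at most 1% mitochondrial UMIs were kept, which left 71914 of 78743. A nucleus was a D1 nucleus if it held at least 2 UMIs of Rgs9, at least 4 of Pde10a, at least 1 of Gad1 or Gad2 and at least 1 of Drd1, with none of Drd2 or Adora2a and at most 1 of Slc17a7. This rule gave 272 D1 nuclei, or 0.378% of the kept barcodes, of which 86 came from WT and 186 from MYT1L Het mice. The same limits with the receptors exchanged, at least 1 UMI of Drd2 or Adora2a and none of Drd1, gave 650 D2 nuclei, which serve as the closest comparison. A further 867 nuclei had the rest of the signature with neither receptor, and 13 had both.

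Striatal projection neurons are GABAergic cells that make up most of the striatum, and they fall into a pair of pathways. D1 neurons carry the dopamine receptor Drd1, release substance P and dynorphin and project to the output nuclei of the basal ganglia, whereas D2 neurons carry Drd2, release enkephalin and project to the external pallidum. In D1 neurons, dopamine acts through the olfactory type G protein (Gnal), adenylyl cyclase Adcy5 and cyclic nucleotides. Pde10a breaks cyclic nucleotides down, Rgs9 speeds the shut-off of G proteins, and DARPP32 (Ppp1r1b) relays the signal to phosphatases.

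The study profiled 12 cortices, from 6 WT and 6 MYT1L Het mice, with 3 males and 3 females of each genotype. Het mice carried a frameshift (S710fsX) in one copy of Myt1l, a zinc finger transcription factor of neurons, on a C57BL/6 background. All 12 animals, WT included, had received AAV9 with the calling cards constructs hyPB and H2b-tdT-SRT into the ventricles as P0-1 pups. Animals came from 4 litters, all samples of this age were run on the same plates, and the tissue is given as cortex in the labels and as prefrontal cortex in one passage of the methods. How much striatum lay in each dissected piece is not given in the sources used here, so that a difference in the number of striatal nuclei between groups and a difference in the dissection cannot be told apart. The 2 alleles of Myt1l cannot be separated in these counts, and the Myt1l level is therefore no direct check of genotype.

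The libraries held between 23429386 and 59958572 UMIs. No barcode was shared between any of the 66 pairs of libraries. D1 nuclei had a median of 5352 UMIs and 2146 genes. Summed over the D1 nuclei of 1 animal, the UMIs ranged from 21998 to 291956, which is the depth behind each value per animal below. Values written as CPM are UMIs divided by the total of such a sum and scaled to the usual CPM total. WT female 3 had only 6 D1 nuclei, below the 10 required, and was left out of the fits on genes but not of the shares or the printed levels. Xist had no UMI in the D1 nuclei of the 6 males and between 260 and 436 CPM in the 6 females, and Eif2s3y was at 0 in females and between 61.3 and 125 CPM in males. Of the other Y-linked genes, Uty had UMIs in 6 of 6 males and in 2 of 6 females (up to 5.64 CPM), Kdm5d in 6 males and 2 females (up to 11.3 CPM), and Ddx3y in 5 males and 1 female.

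The label was checked against the genes that lead in these nuclei, among which Drd1 and Rgs9 were part of the rule. The 20 genes with the largest ratio of D1 nuclei to all other kept barcodes (after adding 5 CPM to both) were led, after Drd1 itself, by Ebf1, a transcription factor of direct pathway neurons, at 454 ± 126 CPM (SD, n = 12) against 14 ± 3.84 in the other barcodes. They also held the retinoic acid receptor Rarb (1533 ± 359 against 60.6 ± 17.0 CPM), Adcy5 (632 ± 110 against 48.0 ± 7.93), the substance P gene Tac1 (99.8 ± 45.7 against 2.63 ± 0.638) and the dynorphin gene Pdyn (66.1 ± 29.5 against 1.46 ± 0.428). Each of these was higher in D1 nuclei in all 12 animals. The phosphodiesterases Pde7b, Pde1b and Pde1c, Gnal, the kinase Prkch, the transcriptional cofactor Dach1 and the protease inhibitor Serpine2 were in the same list. Of these genes, Ebf1, Tac1 and Pdyn speak to the D1 pathway, at 13.5, 7.72 and 1.35 CPM in D2 nuclei, whereas Rarb (1419 CPM), Adcy5 (578 CPM), Dach1 (824 CPM), Gnal (638 CPM) and Pde1c (346 CPM in D2, 341 CPM in D1) were at like levels in D2 nuclei and mark projection neurons of either kind. These values describe nuclei that were chosen for their counts and carry no test.

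Genes of dopamine and cyclic nucleotide signalling were detected in most D1 nuclei and in fewer of the other GABAergic nuclei (at least 3 UMIs of Gad1 or Gad2, no Rgs9 and at most 1 UMI of Pde10a). Both gates select on Rgs9 and Pde10a, in opposite directions, so the contrast is a description and no support for the label. Gnal had a UMI in 94.1% of D1 nuclei and 26.1% of other GABAergic nuclei, and Adcy5 in 92.3% and 14.5%. Median depth was 5352 UMIs in the first and 3391 in the second. The other GABAergic nuclei are a gate, not a cell type: Dcx had a UMI in 57.4% of them and Meis2 in 52.1%, but Lhx6 in 5.61% and Pvalb in 0.976%. After each nucleus was thinned to 2000 UMIs, which left out 2 D1 nuclei and 73 other GABAergic nuclei, Adcy5 still had a UMI in 73.3% and 7.90%. Ppp1r1b, the gene of DARPP32, was sparse in these nuclear libraries. It had a UMI in 22.8% of D1 nuclei, 20% of D2 nuclei and 0.122% of other GABAergic nuclei. The mean level of Ppp1r1b was 52.1 ± 20.4 CPM in D1 and 43.8 ± 14.8 CPM in D2 nuclei (n = 12). Drd1 itself was at its lowest possible count in most members: 207 D1 nuclei had 1 UMI of it, 53 had 2, 11 had 3 and 1 had 4. At this depth, a nucleus without a receptor UMI cannot be told from one that lacks the receptor, which holds for the 867 nuclei with neither.

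**Figure D1:**
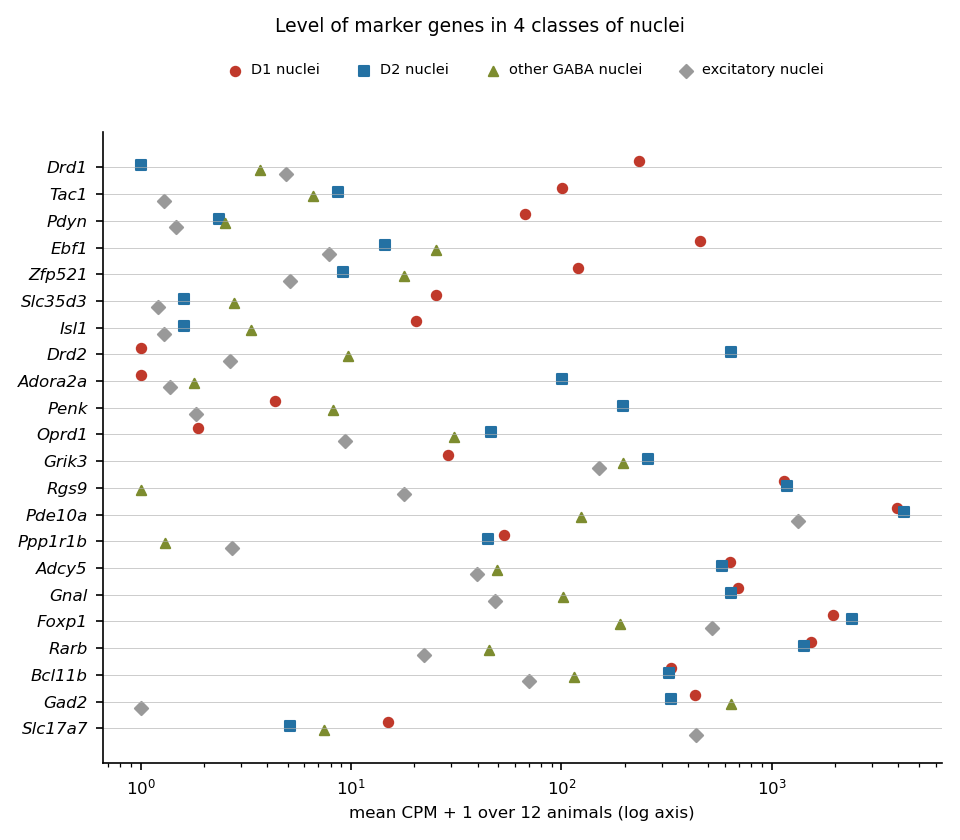
Mean level over 12 animals (CPM + 1, log axis) of marker genes in D1 nuclei, D2 nuclei, other GABAergic nuclei and excitatory nuclei. D1 and D2 nuclei lie close together for Adcy5 (632 and 578 CPM) and far apart at the pathway genes (Ebf1, 454 and 13.5 CPM; Penk, 3.35 and 196 CPM).

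Markers of other cell types were low in the D1 nuclei. Of 10 interneuron markers, Sst and Vip had no UMI in any of the 272, and the summed level of the list was 0 to 62.0 CPM in WT and 36.7 to 85.3 CPM in Het animals. The 8 glutamatergic markers, of which Slc17a7 was part of the rule, summed to between 22.5 and 106 CPM in WT and between 4.22 and 367 CPM in Het. Astrocyte markers (5 genes, Gfap at 0) summed to 0 to 149 CPM in WT and 6.85 to 69.8 CPM in Het, and oligodendrocyte markers (5 genes) to 0 to 565 CPM in WT and 46.5 to 212 CPM in Het. The astrocyte and oligodendrocyte sums reached higher in WT than in Het, and their part in the comparisons of genotype was not tested. At least 1 UMI of the oligodendrocyte markers was in 99 of the 272 D1 nuclei. At least 3 UMIs of a list were held by 5 D1 nuclei for glutamatergic, 5 for astrocyte, 8 for oligodendrocyte, 1 for microglia and 1 for interneuron markers. Of the 272 D1 nuclei, 99 had over 6000 UMIs and 98 lay within the limits that the study set on UMIs and genes per nucleus. Of the 272, 5 were among the 5% of barcodes with the highest doublet score of their library.

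The thresholds on Rgs9 and Pde10a cut through nuclei of like content. The sum of 22 shared signalling genes that the rule did not use had a median of 131 UMIs per 10000 over all D1 nuclei and 137 over D2 nuclei. It was 103 in the 31 D1 nuclei with 2 Rgs9 UMIs, just inside, and 107 in the 42 nuclei with 1, just outside. For Pde10a the medians were 89.7 in 4 nuclei just inside and 113 in 3 just outside. The sum was 105 in the nuclei with neither receptor, 45.5 in excitatory nuclei, 33.4 in other GABAergic nuclei and 4.60 in oligodendrocytes.

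The first comparison of genotypes concerned the share of D1 nuclei among the kept barcodes. In WT the share was lowest at 0.0952%, with a median of 0.301% and a highest value of 0.429%. In Het it was 0.277% at the lowest, 0.426% at the median and 0.777% at the highest. The groups overlapped: 3 of 6 Het animals, all of them female, lay above every WT animal. The mean was 0.279 ± 0.134% in WT and 0.469 ± 0.177% in Het (SD, n = 6 each), a ratio of 1.68, and the difference of 0.190 percentage points did not pass the exact permutation test over animals (two-sided, p = 0.0606, where the smallest possible is 0.00216).

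By sex, the Het males (0.369%, 0.370% and 0.277%) lay within the range of the WT males (0.263%, 0.392% and 0.151%), with means of 0.339% and 0.269% (exact permutation p = 0.600). The Het females (0.482%, 0.535% and 0.777%) all lay above the WT females (0.340%, 0.429% and 0.0952%), with means of 0.598% and 0.288% (exact permutation p = 0.100, the smallest that 3 against 3 allow). The effect in males minus that in females was -0.240 percentage points, and this difference between the sexes did not pass its permutation test (p = 0.205). A rule on raw UMIs is met more easily by a nucleus with more of them. Median UMIs of the D1 nuclei were 4036 to 6759 in WT and 4184 to 5390 in Het. Barcodes of at least 2000 UMIs were thinned to 2000, those with fewer were left out, and the limits were lowered to 1 UMI of Rgs9 and 2 of Pde10a. The difference was then 0.103 percentage points and passed (exact permutation p = 0.0195), on 1 to 8 D1 nuclei per WT animal and 7 to 23 per Het animal. It also passed with a stricter gate (0.189, exact permutation p = 0.0368) and with a looser one (0.257, exact permutation p = 0.0390). It did not pass within the limits of the study (0.128, exact permutation p = 0.132), without the highest doublet scores (0.194, exact permutation p = 0.0671) or as a share of barcodes with a Gad1 or Gad2 UMI (0.879, exact permutation p = 0.0628). The study's limits do not restore its own set of nuclei here, since the matrices hold fewer barcodes than it analysed at this age.

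The shares of the other nuclei with the striatal signature were higher in Het animals. Whether all nuclei with neither receptor are striatal was not tested. D2 nuclei were 0.600% of barcodes in WT (0.190 to 1.09%) and 1.21% in Het (0.953 to 1.5%), and this difference passed the exact permutation test (p = 0.00866), though not with the replicate number as a block (exact sign-flip permutation p = 0.0625, smallest possible 0.03125). Nuclei with neither receptor rose from 0.924% to 1.47% (exact permutation p = 0.00433), and all nuclei with the signature, whatever the receptor, from 1.82% to 3.17% (exact permutation p = 0.00649). Within either sex alone, 3 against 3 animals, the exact permutation test could not go below p = 0.1.

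**Figure D2:**
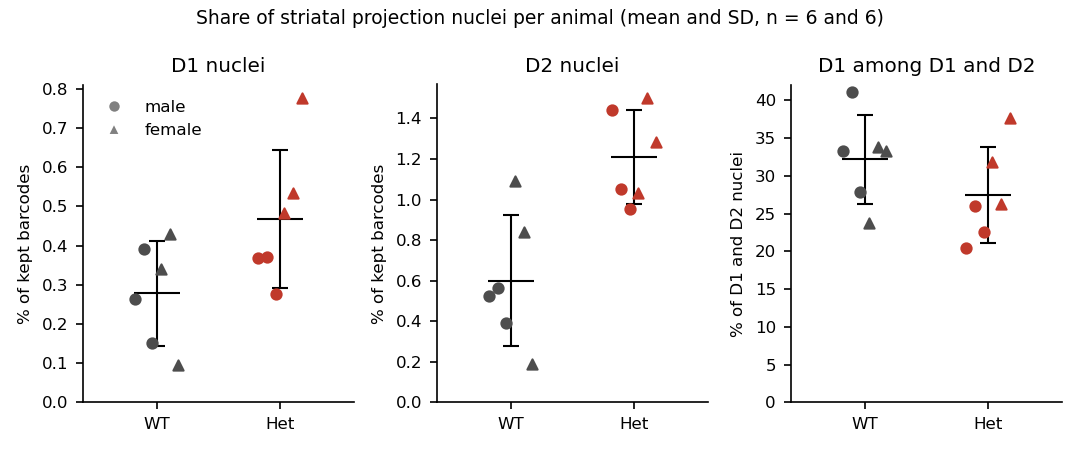
Share of D1 nuclei, share of D2 nuclei (% of kept barcodes) and D1 nuclei as % of D1 and D2 nuclei, 1 point per animal (circles male, triangles female), with the mean and SD of 6 animals. The 3 Het females hold the highest D1 shares, 0.482 to 0.777%, and the D2 shares of the Het animals, 0.953 to 1.5%, overlap with 1 WT animal at 1.09%.

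As a measure that does not depend on how many striatal nuclei a library held, the D1 part of all D1 and D2 nuclei was compared. The gates are not equally easy to pass: members held a median of 1 Drd1 UMI in D1 and 3 Drd2 and Adora2a UMIs in D2 nuclei. The 867 nuclei with neither receptor are left out, so the values are no ratio of D1 to D2 cells. It was 23.7% at the lowest, 33.3% at the median and 41.1% at the highest in WT, and 20.4%, 26.1% and 37.7% in Het. The ranges overlapped widely. The means were 32.2 ± 5.90% and 27.5 ± 6.35% (n = 6 each), a difference of -4.75 percentage points (exact permutation p = 0.210). With thinning the difference was -0.52 (exact permutation p = 0.935) and with the looser gate -1.11 (exact permutation p = 0.758). All 3 Het males (20.4%, 26.0% and 22.5%) lay below the 3 WT males (33.3%, 41.1% and 27.9%), whereas in females the means were 31.9% in Het and 30.3% in WT. The difference between the sexes, -12.8 percentage points, did not pass its permutation test (p = 0.0850).

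Gene expression of the D1 nuclei was compared between Het and WT on sums per animal (5 WT, 6 Het) with edgeR's quasi-likelihood test and Benjamini-Hochberg adjustment over 2105 genes. In such sums a gene that is off in some nuclei and a gene that is lower in all of them cannot be told apart. No gene passed an adjusted p of 0.05 with a log2 change over 0.2 (0% called), 141 genes (6.7%) had an unadjusted p under 0.05, and DESeq2 also called 0. Cdh18, Sik2, Ntrk2 and Lsamp, all higher in Het, were called without WT male 1. The same 4 were called without the highest doublet scores, where WT male 1 kept 9 D1 nuclei and also left the fit. Both settings fitted the same 10 animals, so the part of the doublet scores cannot be told apart. Cdh18 and Sik2 were called without Het female 3, and the 4 genes were among 12 called without the filter on low counts. In simulated counts of the same depth the test recovered 82.3% of genes changed by 1 on the log2 scale and all of those changed by 2, with 6 false calls. The simulation changed 96 of the tested genes by 1 and 100 by 2, among 2001, with the spread taken from the fitted trend. So many changed genes make the adjustment less strict than in a fit with 0 calls. The share recovered is therefore no measure of the power of the genotype comparison. The genes with the smallest p in each direction are described below as values.

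Among the genes that were higher in Het, Sik2 (chromosome 9, 50892801 to 51009073, minus strand, mm10), a salt-inducible kinase, was 174 CPM at the lowest, 203 at the median and 303 at the highest in the 6 WT animals. It was 285, 401 and 452 CPM in Het, and 5 of 6 Het animals lay above all WT animals (log2 change 0.89, SE 0.19, adjusted p = 0.113, edgeR). Srgap1, a GTPase-activating protein of Slit and Robo signalling, was 267, 315 and 481 CPM in WT and 407, 660 and 694 CPM in Het, with 5 of 6 Het animals above all WT animals (log2 change 0.79, SE 0.19, adjusted p = 0.127, edgeR). Ntrk2 (chromosome 13, 58806569 to 59133970, plus strand), which encodes the receptor of BDNF, was 671, 861 and 1228 CPM in WT and 1163, 1399 and 1741 CPM in Het, where 4 of 6 lay above all WT animals (log2 change 0.66, SE 0.15, adjusted p = 0.127, edgeR). Cdh18, a cadherin, had the smallest p, with 346, 540 and 1143 CPM in WT and 686, 885 and 1007 CPM in Het, so that no Het animal lay above the highest WT animal (log2 change 0.81, SE 0.17, adjusted p = 0.113, edgeR). Sorcs3, a sorting receptor, was 186, 228 and 369 CPM in WT and 265, 435 and 590 CPM in Het. The corresponding log2 changes in D2 nuclei were 0.41 for Cdh18, 0.32 for Sik2, 0.21 for Srgap1, 0.47 for Ntrk2 and 0.15 for Sorcs3, all positive and none called among 3372 genes (0% called).

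Of the genes that were lower in Het, Mpp7, a membrane scaffold protein, did not overlap between the groups. It was 155, 212 and 224 CPM in WT and 93.3, 123 and 134 CPM in Het (log2 change -0.77, SE 0.20, adjusted p = 0.353, edgeR). Il1rapl1 (chromosome X), a synaptic adhesion protein, did not overlap either, at 5268, 5829 and 6303 CPM in WT and 4430, 4701 and 5137 CPM in Het (log2 change -0.32, SE 0.10, adjusted p = 0.579, edgeR). Over the 5 WT and 6 Het animals of the fit, all Het animals lay below all WT animals for 4 of the 2105 genes (0.19%) and above them for 6 (0.285%). Tll1, a metalloprotease, was 54.3, 144 and 214 CPM in WT and 24.5, 63.6 and 124 CPM in Het. Tmeff2 (229, 429 and 801 CPM in WT against 233, 318 and 387 CPM in Het) and the protocadherin Pcdh9 (2195, 3898 and 5106 CPM against 2377, 2857 and 4080 CPM) overlapped.

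**Figure D3:**
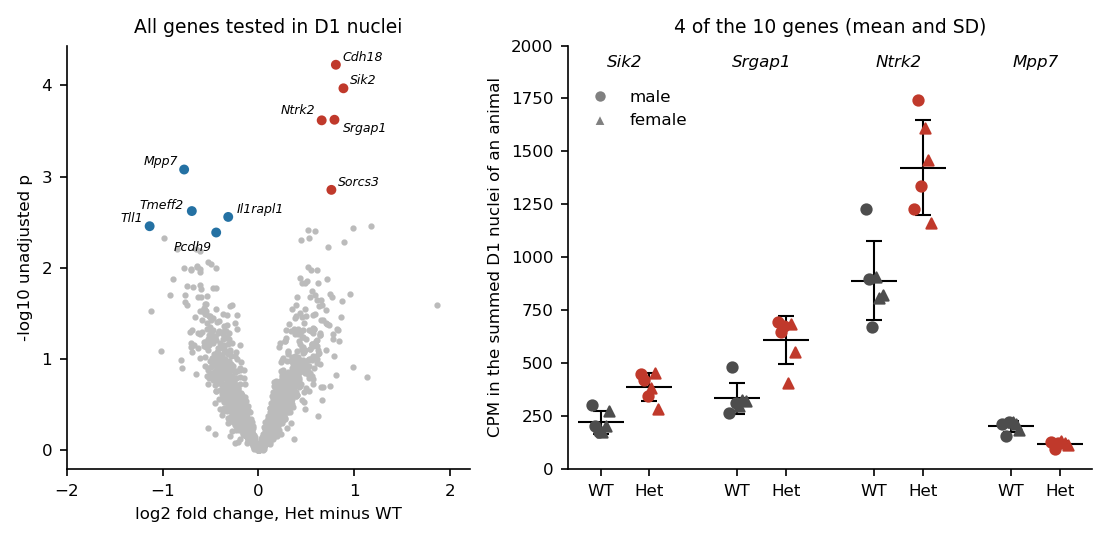
Left, log2 change in Het and -log10 unadjusted p of the 2105 genes tested in D1 nuclei, with the 5 genes of smallest p in each direction in colour. Right, CPM per animal of 4 of them (circles male, triangles female, bars mean and SD). The right panel shows all 6 WT and 6 Het animals, the fit 5 WT and 6 Het, and 5 of 6 Het animals lie above all WT animals for Sik2 and Srgap1.

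Myt1l itself was 931 CPM at the lowest, 1256 at the median and 1577 at the highest in WT, and 1056, 1435 and 1564 CPM in Het. The ranges overlapped nearly completely, with a log2 change of 0.10 (SE 0.14, 95% interval -0.20 to 0.40). Its relatives were scarce in D1 nuclei, with medians of 6.21 CPM in WT and 22.7 CPM in Het for Myt1 and 6.21 and 12.5 CPM for St18.

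The genes that define the pathways gave no call between genotypes. Of the D2 pathway list, 1 of 8 genes was tested, Ptprm, with 0, 10.1 and 107 CPM in WT and 19.8, 87.9 and 186 CPM in Het (log2 change 1.86, SE 0.76, adjusted p = 0.722, edgeR), the largest log2 change of the 2105 genes. Without the filter on low counts, Ptprm (2.00) and Alk (2.18) were called higher in Het. The D2 list summed to 0 to 266 CPM in WT (mean 61.1) and 54.5 to 215 CPM in Het (mean 125), and what part D2 nuclei or their RNA have in the values of the D1 nuclei was not tested. Of the D1 pathway list without Drd1, 3 of 10 genes passed the filter on low counts, and their log2 changes were -0.08 for Ebf1 (95% interval -0.51 to 0.35), 0.15 for Zfp521 (-0.38 to 0.69) and 0.25 for Tac1 (-0.32 to 0.83). The dynorphin gene Pdyn did not pass the filter, with 37.3, 42.0 and 91.5 CPM in WT and 50.8, 70.3 and 130 CPM in Het. Ppp1r1b, which did not pass either, was 24.9, 46.1 and 86.9 CPM in WT and 28.2, 48.1 and 75.5 CPM in Het. Of the shared signalling genes, 15 of 22 were tested, 9 positive and 6 negative, with a median log2 change of 0.08 beside -0.0017 over all genes. Itpr1, the IP3 receptor, had a log2 change of 0.28 (95% interval 0.0024 to 0.56), Pde7b 0.16 and Adcy5 0.08. Among the striatal transcription factors, 7 of 17 were tested with a median of 0.04. Foxp1 (0.04, 95% interval -0.21 to 0.29), Meis2 (0.02, -0.23 to 0.28) and Foxp2 (-0.03, -0.38 to 0.33) were close to 0. Meis1, a homeobox factor, had the largest value (0.98, SE 0.31, adjusted p = 0.579, edgeR) and Mef2c, a factor of synapse refinement, the most negative (-0.53, SE 0.19, adjusted p = 0.644, edgeR).

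Receptors and channels gave no call either. Of the glutamate and GABA receptors, 20 of 26 were tested, 13 positive and 7 negative, with a median log2 change of 0.11, among them Grin2b (0.21), Gria1 (0.15) and Grm5 (-0.15). Of the excitability channels 9 of 15 were tested, with a median of -0.02, and Kcnip4, an auxiliary subunit of A-type potassium channels, was at -0.30 (SE 0.13, adjusted p = 0.722, edgeR). Of 5 neuromodulator receptors tested of 16 the median was 0.0054, with a range of -1.12 to 0.29. Of 22 genes that the study names at this age, a list chosen on these samples, 16 were tested in D1 nuclei, 8 in each direction, with a median of -0.01. The study names some of them as lower and others as higher in Het, among genes found mostly in excitatory neurons. The split and the median therefore cannot be set against the study. The activity-dependent genes summed to 440 to 727 CPM in WT (mean 561) and 594 to 1104 CPM in Het (mean 891), which overlapped, and only Homer1 of the 11 passed the filter, at a log2 change of 0.54 (SE 0.20, adjusted p = 0.644, edgeR). Homer1 had 434 ± 118 CPM in WT and 682 ± 188 CPM in Het (SD, n = 6 each). Without the filter on low counts, Nr4a3 of the same list, with 64 UMIs in D1 nuclei, was called higher in Het (log2 change 2.48, adjusted p = 0.0330, edgeR).

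Whether a Het effect differed between D1 and D2 nuclei was tested as an interaction with the animal as a block, over 3365 genes. Lsamp, a cell adhesion protein of the immunoglobulin family (chromosome 16, 39984361 to 42181679, plus strand), was the 1 gene called (0.0297%). In D1 nuclei it was 5126, 3303, 3328, 2659, 2930 and 5716 CPM in the WT animals (males 1 to 3, then females 1 to 3) and 4934, 5743, 3863, 3977, 4898 and 4919 CPM in Het. In D2 nuclei it ranged from 3933 to 6614 CPM in WT (median 5001) and from 4087 to 4757 CPM in Het (median 4198). Higher values thus stood in Het for D1 nuclei and in WT for D2 nuclei, with overlap in both. The Het effect in D1 minus that in D2 was 0.76 on the log2 scale (SE 0.13, adjusted p = 0.00317, edgeR, 11 animals). In separate fits the effect was 0.44 in D1 (11 animals) and -0.27 in D2 nuclei (12 animals, WT female 3 included). Neither was called alone (adjusted p = 0.580 and 0.699, edgeR). The effect in D1 nuclei alone was called without WT male 1 (0.61, adjusted p = 0.0189, edgeR) and without the filter on low counts (0.59, adjusted p = 0.0343, edgeR). It was also called without the highest doublet scores (0.64, adjusted p = 0.0127, edgeR), a setting that left out WT male 1 as well and is no separate alternative. The call was lost when WT female 3, whose 6 D1 nuclei gave the highest WT value, entered the fit (0.61, adjusted p = 0.744, edgeR) and when WT female 2 was left out (0.71, adjusted p = 0.0562, edgeR).

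D1 and D2 nuclei of the same animals were then compared for what else, beside the receptors, sets D1 nuclei apart. Of 2700 genes, 17 (0.63%) were higher and 29 (1.07%) lower in D1 nuclei by more than 1 on the log2 scale at an adjusted p under 0.05, or 1.7% in all (edgeR, 11 animals, animal as a block, the 8 genes of the rule left out). The transcription factor gene Ebf1 (chromosome 11, 44617317 to 45008091, plus strand) was 178 CPM at the lowest animal, 453 at the median and 636 at the highest in D1 nuclei and 0, 8.13 and 65.3 CPM in D2 nuclei (log2 change 4.96, SE 0.44, higher in 12 of 12 animals). Its partner Zfp521, a zinc finger protein known to act on Ebf1, was 45.7, 113 and 186 CPM in D1 and 0, 6.69 and 18.4 CPM in D2 nuclei (log2 change 3.77, SE 0.24). Neither gene overlapped between the classes. Foxp2, the forkhead factor tied to vocal learning, was 777, 953 and 1603 CPM against 24.6, 211 and 321 CPM (log2 change 2.40, SE 0.17).

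Of the other genes higher in D1 nuclei, Lingo2, a leucine-rich repeat membrane protein, had 2136, 2784 and 3800 CPM in D1 and 83.1, 361 and 510 CPM in D2 nuclei (log2 change 3.34, SE 0.26), again without overlap. Sntg2, a syntrophin, had a median of 135 against 16.0 CPM (log2 change 3.33, higher in 11 of 12 animals), and Serpine2 of 149 against 51.0 CPM (1.77, 12 of 12). Reln, the secreted glycoprotein reelin and a gene of the dorsolateral striatum, was 422, 843 and 1371 CPM in D1 and 196, 298 and 933 CPM in D2 nuclei (log2 change 1.25, SE 0.22, higher in 11 of 12 animals). Adarb2, an RNA-editing enzyme homologue listed for eccentric D1 cells, was 196, 673 and 1317 CPM against 0, 75.4 and 775 CPM (log2 change 2.18, SE 0.51, adjusted p = 0.0207, edgeR). It was higher in D1 nuclei in 12 of 12 animals, and its mean in the other GABAergic nuclei was 5756 CPM. The call was lost without the filter on low counts (adjusted p = 0.111, edgeR) and without Het female 2 (adjusted p = 0.05004, edgeR). Samd4, Fstl5, 6530403H02Rik, Galnt18, Ryr1, Ust, Dgkz, Mitf and Egfem1 made up the rest of the 17.

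On the other side, Penk, the enkephalin gene, was at 0 at the lowest and at the median and at 13.7 CPM at the highest in D1 nuclei, and at 111, 223 and 260 CPM in D2 nuclei (log2 change -5.16, SE 0.29, lower in 12 of 12 animals). The netrin receptor Unc5d (54.1 against 984 CPM at the median, log2 change -4.04), the kainate receptor Grik3 (14.2 against 275 CPM, -3.57), the receptor phosphatase Ptprm (30.5 against 590 CPM, -3.39) and the muscarinic receptor Chrm3 (27.7 against 485 CPM, -3.33) were lower in D1 nuclei in 12 of 12 animals. So were Nell1, the adenosine kinase Adk (67.1 against 390 CPM, -2.43), the potassium channel Kcnc2, the receptor kinase Alk and the calcium-binding Necab1 (152 against 485 CPM, -1.71). The call of Alk was lost in 6 alternatives, among them leaving out WT female 2 or any 1 of the 3 Het females (adjusted p of 0.0518 to 0.0630, edgeR).

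**Figure D4:**
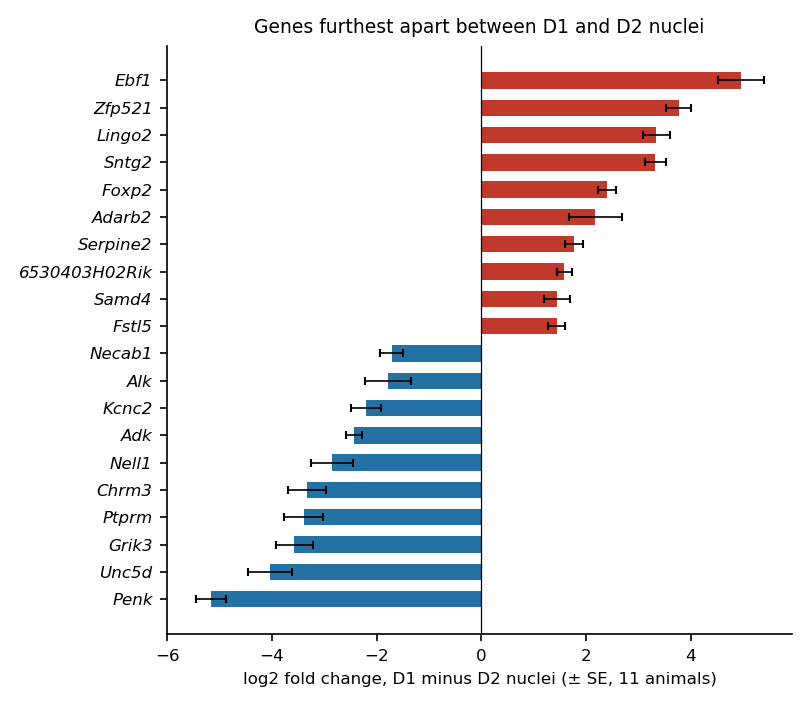
The 10 genes furthest apart in each direction between D1 and D2 nuclei, as log2 change with its SE over 11 animals. Ebf1 stands at 4.96 on the D1 side and Penk at -5.16 on the D2 side.

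Of the 10 D1 pathway genes beside the receptor, Ebf1 and Zfp521 passed the filter on low counts, and of the 8 D2 pathway genes Penk, Grik3 and Ptprm did. Each of these passed through the class in which it is high, so that their directions are no count in support of the lists. The remaining 8 D1 pathway genes were too sparse for the fit and are given as levels. Tac1 had 99.8 ± 45.7 CPM in D1 and 7.72 ± 6.52 in D2 nuclei (n = 12), Pdyn 66.1 ± 29.5 and 1.35 ± 2.28, Slc35d3 24.4 ± 14.3 and 0.602 ± 1.42, and Isl1, a LIM homeodomain factor of D1 fate, 19.3 ± 21.6 and 0.600 ± 1.10. Tac1, Pdyn and Slc35d3 were higher in D1 nuclei in 12 of 12 animals and Isl1 in 10. The ion channel Asic4 was at 28.7 ± 17.4 and 2.502 ± 3.38 CPM (higher in 11), Eya1 at 31.5 ± 31.4 and 8.08 ± 9.59 CPM (higher in 9) and Sfxn1 at 56.8 ± 57.2 and 20.8 ± 8.97 CPM (higher in 10). Chrm4, the muscarinic receptor that D1 neurons are known for, had no UMI in D1, D2, other GABAergic or excitatory nuclei. In 272 D1 nuclei this allows a share of up to 1.10% of nuclei with a UMI.

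Of the shared signalling genes, 17 were tested and none was called with the size limit of 1. Of the 17, 11 had an unadjusted p under 0.05 (edgeR), beside 482 of 2700 over all genes tested. Their median log2 difference was 0.06 beside 0.0035 over all genes. Gng7, a G protein subunit, was lower in D1 nuclei in 11 of 12 animals (log2 difference -0.51, SE 0.11), whereas Pde7b was higher in 12 of 12 (0.24, SE 0.06), both under the size limit of 1. Of 8 striatal transcription factors tested only Foxp2 was called. None of 12 excitability channels and 21 glutamate and GABA receptors on the lists was called. Of these, 5 channels and 4 receptors had an unadjusted p under 0.05 (edgeR), again beside 482 of 2700 genes, a share that the receptors hardly differ from. Below the size limit, the metabotropic glutamate receptor Grm8 (log2 difference 0.97, SE 0.11) and the kainate receptor Grik2 (0.50, SE 0.06) were higher, and the calcium sensor Hpca (-0.96, SE 0.15) and the calcium channel subunit Cacnb2 (-0.74, SE 0.08) lower, in D1 nuclei, each at an adjusted p under 0.05 (edgeR). Grik3 and Kcnc2, called lower in D1 nuclei above, are not on these lists. The level of Myt1l was 1296 ± 206 CPM in D1 and 1351 ± 218 CPM in D2 nuclei (log2 difference -0.08, SE 0.07).

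D1 nuclei also differed among themselves. Ebf1, the gene with the largest change among those higher in D1 than in D2 nuclei, had no UMI in 85 of the 272 (31.25%). These 85 had a median of 5032 UMIs and the other 187 of 5443, so that depth was close. The split was chosen after the values had been seen and has no test. Col11a1, a fibrillar collagen listed for eccentric D1 cells, had a UMI in 32.9% of nuclei without Ebf1 and in 5.35% of those with it, at 134 and 11.4 CPM over the pooled nuclei, and it was higher in nuclei without Ebf1 in 11 animals and lower in 0. Tshz1, a zinc finger factor of striosomes, was at 132 and 28.9 CPM (higher in 10 animals, lower in 0), and the mu opioid receptor Oprm1, the classical striosome marker, at 60.4 and 13.3 CPM (higher in 6, lower in 3). The dopamine receptor Drd3, a gene of the ventral striatum, was at 99.6 and 14.2 CPM (higher in 8, lower in 3), while its list was split, with 3 of 6 genes higher and 3 lower. Sema5b, a semaphorin of the striosome list, was at 128 and 39.3 CPM (higher in 9, lower in 2). Of the striosome list 7 of 8 genes were higher in nuclei without Ebf1, and of the eccentric D1 list 5 of 6, by pooled CPM and with no share over all genes to set beside them. Pdyn, the exception on the striosome list, was at 56.0 CPM without and 82.9 CPM with Ebf1 (lower in 9 animals, higher in 3). Some of the genes that were higher rest on few UMIs or differ between animals: Pcdh8 had 1 UMI in either class, Cacng5 was higher in 3 animals and lower in 3, and Kremen1 higher in 5 and lower in 6. Adarb2 was at 908 CPM without and 623 CPM with Ebf1 (higher in 8 animals, lower in 4) but had a UMI in 65.9% of nuclei without Ebf1 and in 78.6% of those with it.

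Other lists were lower, by pooled CPM, in nuclei without Ebf1, again with no share over all genes to set beside the counts. All 4 dorsolateral genes were, among them Reln (525 against 949 CPM, though lower in 7 animals and higher in 5) and the cannabinoid receptor Cnr1 (159 against 264 CPM, lower in 9 animals and higher in 3). Of the matrix list 3 of 4 were, with Epha4 at 253 and 378 CPM (lower in 9 animals, higher in 3). Sv2b was lower when pooled but higher in 8 animals and lower in 4. Gda was higher when pooled but lower in 8 animals and higher in 4. Id4 had only 3 UMIs without and 10 with Ebf1. Of the 22 signalling genes 17 were lower, such as Pde7b (1616 against 2640 CPM) and Itpr1 (821 against 1318 CPM), each lower in 11 of 12 animals. Meis1 (56.0 against 136 CPM) and Zfp521 (79.4 against 151 CPM) went the same way, whereas Foxp2 (1341 against 915 CPM, higher in 8 animals, lower in 4) did not. Tac1 was at 98.5 and 88.1 CPM when pooled, but lower without Ebf1 in 8 animals and higher in 4. Otof, which is listed with the eccentric cells, was lower without Ebf1 (152 against 207 CPM, lower in 10 animals). The share of D1 nuclei without Ebf1 was 17.4% at the lowest, 29.2% at the median and 60.0% at the highest in WT and 21.6%, 29.8% and 50.0% in Het. The groups overlapped almost fully (32.5 ± 15.5% and 33.2 ± 11.1%, n = 6 each, exact permutation p = 0.937).

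**Figure D5:**
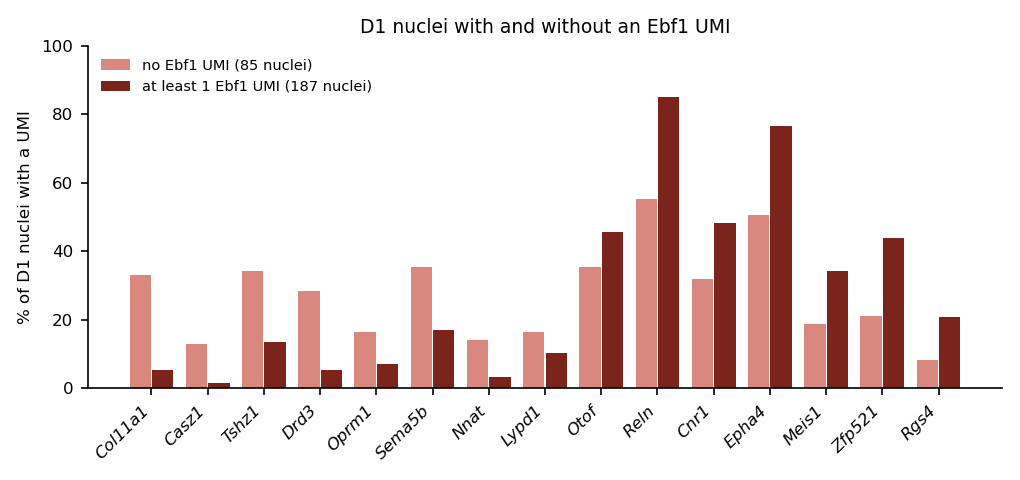
Share of D1 nuclei with at least 1 UMI of each gene, for the 85 nuclei without and the 187 nuclei with a UMI of Ebf1, pooled over 12 animals. Col11a1 stands at 32.9% and 5.35%, and Reln at 55.3% and 85.0%.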

How the data were processed

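Nuclei from the cortex of 12 mice at P21 (6 WT, 6 MYT1L Het) were profiled with a Scale Biosciences single-nucleus RNA kit. The authors aligned the reads to mm10 and deposited 1 matrix of UMIs per animal, which holds expected counts (92.6% of entries were whole), not normalized. Per the submitters' processing notes they used Seurat 4.3.0 and DESeq2 1.38.3. The members and gene lists were chosen with earlier results of these data known.

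UMIs of the nuclei passing the rule were summed per animal and gene and rounded after summing. The viral transcript TDTOMATO (0.0274% of UMIs) entered neither library sizes nor tests. Sums were fitted with edgeR 4.0.16 (TMM, filterByExpr, robust quasi-likelihood) in R 4.3.3 for animals with at least 10 nuclei, and called at an adjusted p under 0.05, with a log2 change over 0.2 for genotype, over 1 for D1 against D2, and no size limit for the interaction. Shares were compared by exact permutation over animals (two-sided), and the difference between the sexes by permuting sex within genotype. The 95% intervals of log2 changes come from the edgeR fits and, like the p-values, measure the spread between animals. The limit for a count of 0 covers counting error only.

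The genes named are those of the rule, Myt1l, Ppp1r1b, the sex genes and members of counted lists, the 5 genes of smallest p in each direction between genotypes (none was called), the 10 called genes with the largest change in each direction between D1 and D2 with a mean of at least 10 CPM, and the 20 with the largest ratio to other barcodes. Others were named after their values were seen. Coordinates are from the GENCODE annotation of GRCm38 (mm10).

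Alternatives were DESeq2 1.42.0, no filter on low counts, gates at 3 Rgs9 and 6 Pde10a UMIs or at 1 and 2, no barcodes in the top 5% of Scrublet scores of a library, the limits of the study (800 to 6000 UMIs, 300 to 3000 genes, log genes over log UMIs of at least 0.9), thinning, a sex term, a replicate block and leaving out each animal. Fitting all 12 animals, and the shares of the other nuclei with the signature, were added after seeing the data. Tables and permutation tests were made in Python 3.11.15 with scipy 1.17.1, pandas 2.3.3 and numpy 2.4.6, and plots with matplotlib 3.10.9. The scripts were tested on simulated data. One gene that the rule names is not reported here.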

Additional observations from a re-analysis of the deposited data

Results flagged for a closer look

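In the WT group, Srgap1 in the D1 nuclei of WT male 2 stood apart at 481 CPM, with the next animal at 324 and the lowest at 267 CPM. It was 1 of 36 groups examined, and chance sets apart about 1 in 20. The Het effect on Lsamp differed between D1 and D2 nuclei by 0.76 on the log2 scale (adjusted p = 0.00317, edgeR), a call that 2 of its 14 alternatives lost.

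The viral transcript TDTOMATO, which no comparison used, had a UMI in a mean of 31.0% of D1 nuclei per animal (0 to 71.4%) and of 53.1% of all other barcodes (39.1 to 67.1%). It was lower in D1 nuclei in 11 of 12 animals, and 93 of the 272 D1 nuclei (34.2%) had a UMI.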

How the results depend on the processing

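The Het minus WT difference in D1 share (0.190 percentage points, exact permutation p = 0.0606) passed with the stricter gate (0.189), the looser gate (0.257) and thinning (0.103), and not within the limits of the study (0.128), without the highest Scrublet scores (0.194) or over barcodes with a Gad UMI (0.879). Leaving out 1 animal gave 0.128 to 0.228, past the threshold without WT female 2 (0.220, exact permutation p = 0.0390) or Het male 3 (0.228, exact permutation p = 0.0303). The difference in D1 part of D1 and D2 nuclei was -4.75, with -6.79 to -2.97 when 1 animal was left out, 1.64 in females alone, -0.52 with thinning and -1.11 with the looser gate. The D2 share was no longer past the threshold with the replicate block (0.611, exact permutation p = 0.0625). In males alone its difference was 0.656 and in females 0.565, and for the gate without a receptor 1.49 and 1.21. With 3 against 3 animals the exact permutation test cannot go below p = 0.1, so neither sex alone could pass. The D2 share difference was 0.529 to 0.709 when 1 animal was left out.

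Between genotypes 0 genes were called, against 12 without the filter on low counts, 4 without the highest Scrublet scores and 0 to 4 when 1 animal was left out (4 without WT male 1, 2 without Het female 3). The Scrublet setting also left out WT male 1 (9 D1 nuclei), and its 4 genes were those called without WT male 1. Myt1l ranged from -0.0051 (without WT male 2) to 0.18 (without WT male 3) when 1 animal was left out. Of 208 alternatives for the genes named there, 194 kept direction and side of the threshold and 13 passed it. D1 against D2 gave 46 calls, 112 with DESeq2, 168 without the filter and 44 to 53 when 1 animal was left out. Within the limits of the study, from 3 animals, it gave 41 calls, which hold 22 of the 46 (47.8%). Of 313 alternatives for the genes named there, 10 lost the call (Alk 6, Adarb2 2, Fstl5 1, Nell1 1). The interaction gave 1 call, 5 without the filter, 0 with all 12 animals and 0 to 2 when 1 animal was left out.

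Deviations of same-numbered animals of a sex had correlations of -0.0589 to 0.113 over 1991 genes, and the numbers were not taken as pairs. With sums of 6 to 55 nuclei, counting noise alone can keep such correlations low, so they cannot exclude pairing. With the replicate block, the D1 share difference was 0.190 (exact permutation p = 0.0625), the D1 part -4.75 (exact permutation p = 0.25), and the genotype comparison called 0 genes. The genotype comparison and the interaction were not run within the limits of the study, nor Oprm1-high against Oprm1-zero nuclei, since at most 2 such nuclei were found per animal. Sums of 6 to 55 nuclei per animal limit the depth, and sparse genes could not be tested. The causes were not tested.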
